A study of Rattus norvegicus with 24 samples.

Results

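The comparison of repeated with single dosing set 8 arrays of Chronic rats against 8 of Acute rats, taken by their labelled treatment group, out of 24 arrays in all. MDPV (methylenedioxypyrovalerone) is a synthetic cathinone, and both of these groups received it as their last injection, so the comparison asks what the earlier doses added. Every rat was a male Long Evans rat aged 80 to 90 days and was injected intraperitoneally once a day for 5 days. Chronic rats had MDPV at 1 mg/kg in all 5 injections. Acute rats had saline in the earlier injections and MDPV at 1 mg/kg in the last. The remaining 8 arrays are of Saline rats, which never had the drug. The left dorsal striatum was dissected 24 h after the last injection, and its total RNA was hybridised to one-colour Agilent arrays.

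MDPV blocks the transporters that clear dopamine and noradrenaline from the synapse. In the dorsal striatum dopamine acts on projection neurons of a direct pathway, which carry the D1 receptor, and of an indirect pathway, which carry the D2 receptor. Stimulants that raise dopamine are known to induce immediate early genes and neuropeptide genes such as Pdyn in these neurons, and repeated exposure can blunt or extend that response.

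The 16 drug arrays lay on 3 slides, with 3 Chronic and 2 Acute arrays on slide 1, 3 and 2 on slide 2, and 2 and 4 on slide 3. The series states 6 rats per group and some arrays share a letter in their titles, so arrays with a shared letter were averaged, which left 6 Chronic and 6 Acute units. The labels do not say which arrays come from separate rats, so p-values measure the spread between units. That spread was taken over 18 units, 6 of them Saline. The median SD of a gene was 0.259 in Saline, 0.204 in Chronic and 0.215 in Acute units. Well above background were 54.8% to 69.3% of spots on Chronic arrays and 53.7% to 69.1% on Acute arrays. Levels below are log2 signals relative to the 75th percentile of the same array, and differences are log2, Chronic minus Acute. The tissue label was borne out by its markers: Ppp1r1b, the dopamine-regulated phosphatase inhibitor of striatal projection neurons, averaged 4.70 ± 0.28 in Chronic and 4.56 ± 0.25 in Acute units (SD, n = 6 each), and Penk, Tac1, Drd1 and Drd2 were well above background on all 16 arrays.

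No gene differed between Chronic and Acute rats at an adjusted p under 0.05 by limma, 0.0% of the 20354 genes tested, and the smallest adjusted p was 0.963. Before adjustment, 505 genes (2.48%) had a p under 0.05, a smaller share than that threshold would give by chance. Of these, 330 were higher in Chronic units (1.62% of genes) and 175 lower (0.86%). In 20 genes (0.0983%) every Chronic unit lay above every Acute unit, and in 16 (0.0786%) every Chronic unit lay below. These counts were not set against chance, so a lack of overlap in a gene is description only. The median gene differed by 0.02, with a median standard error of 0.138 for a single gene. With the drug units fitted alone, that error was 0.123, and 811 genes had an unadjusted p under 0.05 by limma. The 95% interval of the difference lay within 2-fold in either direction for 19336 genes and within 1.5-fold for 75.5% of all genes. With slide as a block on the single arrays, the count past the threshold was again 0, with 586 genes at an unadjusted p under 0.05.

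The genes with the smallest p among those higher in Chronic units were led by Vps33a, which serves the fusion of endosomes with lysosomes. Its level was lowest at -4.15, with a median of -3.81 and a highest value of -3.62, in Chronic units, against -4.47, -4.35 and -4.20 in Acute units. The groups did not overlap. The difference was 0.49 (SE 0.12), a fold of 1.40, and was 0.58, 0.49 and 0.35 within slides 1, 2 and 3. Saline units averaged -4.19 ± 0.23, between the means of the drug groups. The probe lies at chr12:34188686-34188745 in the rat build rn4.

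Cacna1a, the pore-forming subunit of P/Q-type calcium channels that trigger transmitter release, ran from -4.19 through a median of -4.05 to -3.92 in Chronic units, against -4.61, -4.48 and -4.39 in Acute units. These groups were also apart, by 0.41 (SE 0.13), with 0.45, 0.40 and 0.24 within the slides. A dimmer probe for the same gene gave 0.09 (SE 0.26). Klhdc2, a substrate receptor of a ubiquitin ligase, was far brighter, at 1.27, 1.37 and 1.61 in Chronic units against 1.06, 1.18 and 1.26 in Acute units. It differed by 0.21 (SE 0.07) without overlap.

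Ifnar1, a chain of the type I interferon receptor, averaged -3.89 ± 0.10 in Chronic and -4.17 ± 0.18 in Acute units, a difference of 0.28 (SE 0.09), with overlapping groups. Dip2a differed by 0.37 (SE 0.11), and its 3 slides gave 0.32, 0.32 and 0.29. The other leading genes were the RNA helicase Ddx31 at 0.58, Shisa2 at 0.79, the ubiquitin ligase adaptor Tnfaip1 at 0.30, the kinase Stk24 at 0.39, the potassium channel regulator Abcc9 at 0.56 and the lysosomal transporter Abcd4 at 0.46. Abcc9 was at 0.03 on slide 2, and at 0.71 and 0.78 on slides 1 and 3. Ppp6c, a phosphatase catalytic subunit, was at 0.29 with 5 Acute units, because the spot of Acute replicate 2 had been marked as an outlier and left out. With that spot kept, the value was -1.33.

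**Figure D1:**
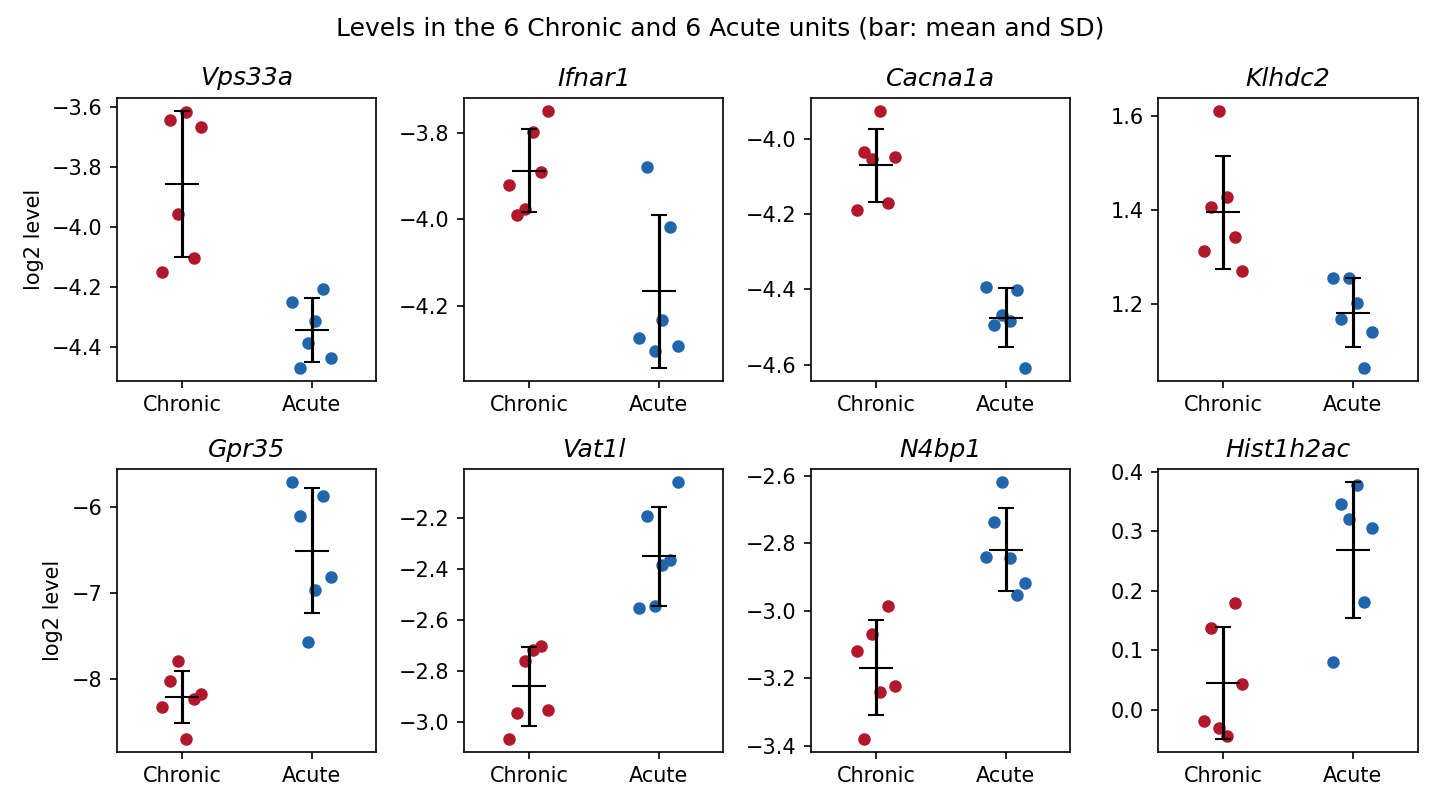
Log2 levels (relative to the array's 75th percentile) of 8 of the genes with the smallest p, in 6 Chronic units at left and 6 Acute units at right of each panel; points are units, and bars give the mean and SD. Chronic units lie above all Acute units for Vps33a, Cacna1a and Klhdc2 and below all of them for Gpr35, Vat1l and N4bp1, while Ifnar1 and Hist1h2ac overlap.

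Among genes lower in Chronic units, Gpr35, a G protein-coupled receptor (probe at chr9:92259098-92259157, rn4), had the smallest p of all genes. Its signal was at -8.70, -8.20 and -7.79 (lowest, median and highest) in Chronic units, against -7.57, -6.46 and -5.70 in Acute units. The probe was not well above background on any Chronic array and was so on 4 of 8 Acute and 1 of 8 Saline arrays, so it entered the test through the Acute group alone. With Chronic signals raised to the dimmest that counts as above background, the Chronic mean was 1.26-fold below the Acute mean. The Acute mean was taken as measured, without its error and with its dim arrays, so this fold is description only. The adjusted p of the measured difference was 0.963 by limma. Paep, a lipocalin named Lcn11 on the array, had the same pattern, with 0 of 8 Chronic, 4 of 8 Acute and 0 of 8 Saline arrays above background. Its fold, reckoned in the same way, was 1.30.

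Vat1l, a homologue of a synaptic vesicle membrane protein, was measured on every array. It ran from -3.07 through -2.86 to -2.70 in Chronic units, against -2.55, -2.38 and -2.06 in Acute units, with no overlap and a difference of -0.51 (SE 0.13). Saline units averaged -2.14 ± 0.31. Within slides it was -0.46, -0.16 and -0.45. Zfp64, a zinc finger gene, was apart by -0.20 (SE 0.07), with -0.17, -0.18 and -0.13 within slides.

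N4bp1, an endoribonuclease that restrains NF-kappaB signalling, lay at -3.38, -3.17 and -2.99 in Chronic units against -2.95, -2.84 and -2.62 in Acute units, a difference of -0.35 (SE 0.10). A second N4bp1 probe gave 0.18 (SE 0.16). Hcst, a signalling adaptor of immune receptors, averaged -6.09 ± 0.34 in Chronic and -5.23 ± 0.58 in Acute units, a difference of -0.86 (SE 0.24), and its Saline mean was -5.96. It was well above background on 4 of 8 Chronic and 6 of 8 Acute arrays. Them5 was above background on 1 of 8 Chronic, 4 of 8 Acute and 1 of 8 Saline arrays, so it too was kept through the Acute group alone, and its -0.79 rests mostly on dim Chronic signals. The rest of the leading genes were the amino acid transporter Slc38a5 at -0.38, the signalosome subunit Cops9 at -0.19, and the histone genes Hist1h2bo at -0.47, Hist1h2ac at -0.22 and H2ac4 at -0.24.

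The probes of Cacna1a and N4bp1 are given because the readings of each gene came from different places in it. The first 30 bases of each 60-base probe are shown as the array files give them, in lower case throughout.
Cacna1a, brighter probe: ggcctgtttggaaaacactctgtgaatatg
Cacna1a, dimmer probe: ctgtggagatgagagaaatgggaactgatg
N4bp1, brighter probe: ttgtggcacctaacagtgccttgcacttgg
N4bp1, dimmer probe: aagaaacggacctcggctggaagaatttct
In the files' rat build rn4 the Cacna1a probes lie on the minus strand at chr19:25186885-25186944 (brighter) and chr19:25194788-25194847 (dimmer). The N4bp1 probes lie on the plus strand of the same chromosome at chr19:21610823-21610882 (brighter) and chr19:21605145-21606819 (dimmer, a span longer than the probe). The dimmer probes were well above background on 14 and 15 of 24 arrays, against 23 and 24 for the brighter ones.

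Transcripts that dopamine and neuronal activity regulate were fixed as a list of 22 genes, of which 20 were measured and none passed. Of these, 11 were higher and 9 lower in Chronic units, with a median of 0.03 beside 0.02 over all genes. Fos, the prototype immediate early gene, was at -5.49, -4.96 and -3.77 in Chronic units and -5.50, -4.71 and -4.31 in Acute units. The groups overlapped throughout, and the difference was 0.04 with an interval from -0.56 to 0.64. Arc, whose protein acts at the synapse, differed by 0.04 (SE 0.30), and the transcription factors Egr1 by -0.02 (SE 0.18; 0.21 on another probe) and Nr4a1 by -0.01 (SE 0.25). Fosb, whose truncated product accumulates with repeated drug exposure in striatum, averaged -4.02 ± 0.31 in Chronic and -4.18 ± 0.40 in Acute units, a difference of 0.16 with an interval from -0.32 to 0.64. Junb was the immediate early gene with the largest difference on the list of 22, at 0.45 (SE 0.25), with 0.70 and 0.78 on slides 1 and 3 and a value near 0 on slide 2.

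Pdyn, the precursor of dynorphin made by direct-pathway neurons, ran from 1.25 to 2.34 in Chronic units (mean 1.68 ± 0.41) and from 1.74 to 2.69 in Acute units (mean 2.08 ± 0.35, SD, n = 6 each). The groups overlapped, and the difference was -0.40 (SE 0.20) with an interval from -0.83 to 0.03 and slide values of -0.13, -0.96 and -0.14. Penk, the enkephalin precursor of indirect-pathway neurons, differed by 0.03 (SE 0.19) and by 0.13 on another probe. Tac1, the substance P precursor, differed by -0.10 (SE 0.20). Drd1 and Drd2, the main dopamine receptors, differed by -0.20 (SE 0.20) and -0.14 (SE 0.23), and Chronic replicate 4 was the lowest of its group for both. A second Drd1 probe gave 0.08. Cartpt, a stimulant-responsive peptide gene, varied most, from -4.66 to 0.62 among Chronic units and -1.73 to 0.79 among Acute units. Bdnf, a neurotrophin carried into the striatum mostly from cortex, differed by 0.39 (SE 0.43), and by 0.81, 1.56 and -1.57 within slides. The clock genes Per1 and Per2 differed by -0.09 (SE 0.15) and 0.05 (SE 0.11), and a second Per1 probe gave 0.28. The glucocorticoid targets Fkbp5 and Sgk1 differed by 0.08 (SE 0.14) and 0.13 (SE 0.18). The postsynaptic scaffold Homer1 differed by -0.03 (SE 0.16), and by -0.14 and 0.22 on other probes. Th, the rate-limiting enzyme of dopamine synthesis, differed by 0.13 (SE 0.23).

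**Figure D2:**
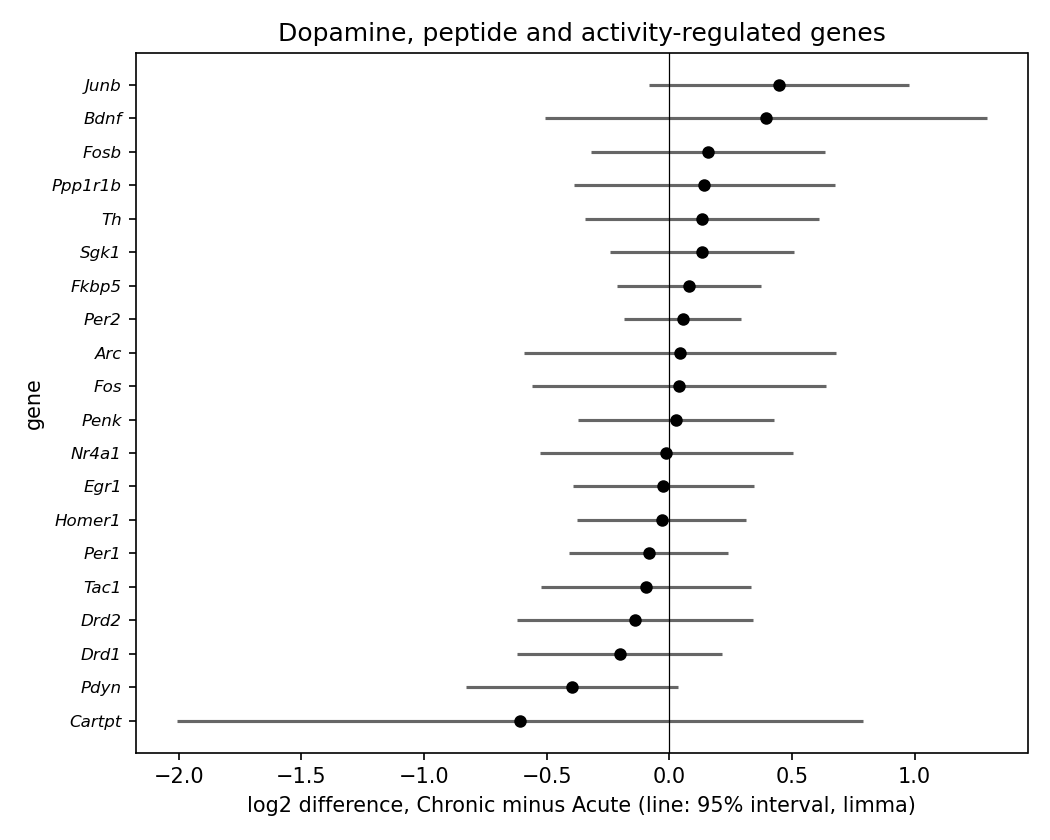
Log2 differences, Chronic minus Acute, of the 20 measured dopamine, peptide and activity-regulated genes (points) with 95% intervals from limma (lines). Every interval crosses 0; that of Pdyn runs from -0.83 to 0.03.

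In bulk tissue, fewer cells of a type and less RNA per cell cannot be told apart. Genes of dopamine receptor and cAMP signalling were lower in 18 of 27 measured members, with a median of -0.06, and 20 pan-striatal neuron markers had a median of -0.05, with 14 lower. The pan-striatal list level was 1.85 in Chronic replicate 4 and 2.35 to 2.43 in the other Chronic units, against 2.02 to 2.54 in Acute units. Without that replicate the medians of the dopamine and pan-striatal lists were -0.01 and 0.03. Direct-pathway and indirect-pathway markers had medians of -0.10 and -0.09, and 0.00 and -0.01 without it. Leaving out Acute replicate 2 moved the lists the other way, to -0.08 for dopamine signalling (24 of 27 lower) and -0.12 for pan-striatal markers (19 of 20 lower), and to -0.16 and -0.18 for direct-pathway and indirect-pathway markers. With choroid plexus and cortex marker levels as covariates, the dopamine median was -0.11 (25 of 27 lower) and the pan-striatal one -0.10 (19 of 20 lower). With slide as a block they were -0.01 (14 of 27 lower) and -0.03 (12 of 20 lower). Within slides 1, 2 and 3 the dopamine median was 0.03, -0.36 and 0.17. The pan-striatal one was 0.02, -0.43 and 0.27, with 20 of 20 lower on slide 2 and 0 of 20 lower on slide 3. Akap5, a postsynaptic anchor of protein kinase A, was the member of the dopamine list with the smallest p, at -0.37 (SE 0.18), with slide values of -0.05, -0.68 and -0.15. Prkacb, a catalytic subunit of that kinase, differed by -0.15 (SE 0.09), and by -0.13 to -0.04 on other probes. Of 22 neuropeptide and opioid receptor genes, 11 were higher and 11 lower. The somatostatin receptor Sstr2 was at 0.40 (SE 0.23). The mu opioid receptor Oprm1 was at -0.69 (SE 0.37) but was above background on only 1 Chronic and 4 Acute arrays and so was kept through the Acute group, and its other probe gave -0.09.

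Genes of synaptic structure and release were mostly higher in Chronic units, again with none past the threshold. Over all genes, 56.3% were higher. Of 29 presynaptic release genes 22 were higher in Chronic units, with a median of 0.12, and of 28 postsynaptic density genes 21 were higher, with a median of 0.09. Nsf, the ATPase that takes apart fusion complexes, averaged 1.59 ± 0.15 in Chronic and 1.36 ± 0.14 in Acute units, a difference of 0.24 (SE 0.12). The spine protein Synpo differed by 0.40 (SE 0.18). Kalrn, an exchange factor that shapes spines, differed by 0.20 (SE 0.12), and by 0.25 and -0.06 on other probes. The presynaptic median was 0.12, 0.31 and -0.14 within slides 1, 2 and 3, and the postsynaptic one 0.10, -0.02 and 0.04. With the digit 0 array of each letter alone the postsynaptic median was -0.015 with 17 of 28 lower. With choroid plexus and cortex marker levels as covariates it was 0.022 with 16 of 28 higher. In that fit the presynaptic median was 0.08 with 19 of 29 higher. Of 16 markers of cortical excitatory neurons 15 were higher, with a median of 0.16 and slide values of 0.30, 1.16 and -1.13. Their order of slides was that of the presynaptic list and not of the postsynaptic one, but an order of only 3 slides is description only. Their mean level ran from -2.97 to -1.81 in Chronic units and -3.11 to -2.10 in Acute units, and the cortical transcription factor Tbr1 was above background on 5 Chronic and 3 Acute arrays. The covariate fit took both tissues at once, so the part of cortical markers alone in the synaptic medians was not tested.

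Among ion channels and receptors, 19 of 27 calcium and sodium channel genes were higher (median 0.04), and 16 of 35 potassium channel genes (median -0.03). Over all genes, 56.3% were higher. Kcna6, a voltage-gated potassium channel, ran from -0.05 to 0.41 in Chronic units and from -0.08 to -0.03 in Acute units, which is 0.22 (SE 0.11) overall and 0.20, 0.21 and 0.25 on the separate slides. Kcnq3, a subunit of the M-current channel, differed by -0.34 (SE 0.19), and its second probe gave -0.48. Glutamate receptor genes had 12 of 22 higher (median 0.02), with the AMPA receptor subunits Gria1 at 0.20 (SE 0.11; 0.16 on another probe) and Gria2 at -0.18 (SE 0.11). The metabotropic receptor Grm3 was at 0.25 (SE 0.16), and its second probe at 0.01. All 20 GABA receptor and handling genes had intervals within 1.5-fold, and their median was 0.01. Htr3a, the ionotropic serotonin receptor found on interneurons, averaged -0.97 ± 0.19 in Chronic and -0.60 ± 0.26 in Acute units, a difference of -0.38 (SE 0.14), with slide values of -0.15, -0.76 and -0.18. Cholinergic interneuron markers were lower in 5 of 8 (median -0.21). They included the choline transporter Slc5a7 at -0.32 (SE 0.16), whose other probe gave 0.33. The growth factor Gdnf was at -0.26 (SE 0.16).

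Cytosolic ribosomal proteins make up the protein part of the ribosome. Of 78 of their genes measured, 73 were lower in Chronic units, with a median of -0.12, where over all genes 11464 were higher and 8890 lower. In size, all 78 intervals lay within 1.5-fold. At an unadjusted p under 0.05, 8 were lower and none higher, beside 0.86% and 1.62% of all genes, and no member passed the adjusted threshold. Rpl19 was at 4.73, 5.11 and 5.22 in Chronic units against 5.17, 5.27 and 5.39 in Acute units, a difference of -0.25 (SE 0.09), and its second probe gave -0.03. The groups overlapped at their edges. At the other end were Rpl6 at 0.05 (SE 0.08) and Rpl10 at 0.04 (SE 0.06), whose second probe gave -0.14.

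The mean level of the ribosomal list was 4.00, 4.12 and 4.14 (lowest, median and highest) in Chronic units and 4.09, 4.22 and 4.31 in Acute units, with a Saline mean of 4.18 ± 0.11. The groups overlapped. Within slides 1, 2 and 3 the list median was -0.07, -0.17 and -0.04, and with slide as a block it was -0.11 with 71 of 78 lower. The median difference varied with brightness when genes were split by mean level into 10 bins of equal size. It was -0.03 in the brightest bin, 0.07 in the bin next to the dimmest and 0.007 in the dimmest. The part of signal brightness in the ribosomal median was not tested.

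Ribosomal protein mRNAs are known for a run of pyrimidines at their 5′ end, through which growth signalling adjusts their translation. The start sites of Rpl19 and Rpl10 are shown because their brighter probes stood near opposite ends of the list, with 30 bases on each side of the annotated start and the pyrimidine run in capitals.
Rpl19: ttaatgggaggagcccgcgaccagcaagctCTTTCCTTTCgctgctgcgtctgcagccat
Rpl10: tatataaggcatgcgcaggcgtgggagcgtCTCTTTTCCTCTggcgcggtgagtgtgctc
Both come from the RefSeq table of build GRCr8, at chr10:83519034-83519093 and chrX:157205820-157205879 on the plus strand. A C followed by at least 5 pyrimidines, read on the sense strand and beginning within 5 bases of the start, was found in 36 of 62 matched ribosomal protein genes (58.1%) and in 9.75% of the 27457 promoters of the table. Rpl6, the gene at the high end of the list, had no such run at its annotated start.

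Other components of gene expression and metabolism gave smaller medians, and their counts stand beside 56.3% of all genes higher. Translation factors were higher in 21 of 36, with a median of 0.03, but Eif4a2, an initiation helicase, was lower without overlap: it lay from 3.06 to 3.17 in Chronic units and from 3.19 to 3.50 in Acute units, a difference of -0.17 (SE 0.07). Its second probe gave -0.04. Mitochondrial respiratory chain genes were lower in 50 of 75, with a median of -0.04. That count depended on the scaling: 38 of 75 were lower with quantile normalization and 62 of 75 with the median of each array. Within slides 1, 2 and 3 the median was -0.06, 0.05 and -0.05. Uqcrq of complex III differed by -0.22 (SE 0.09), and by 0.12 on another probe. Ndufb8 of complex I differed by -0.17 (SE 0.08) and Sdha of complex II by 0.13 (SE 0.06). Proteasome genes were higher in 22 of 31 (median 0.04) and chaperones in 16 of 31 (median 0.00), among them Calr at 0.23 (SE 0.11) and Dnajb1 at 0.18 (SE 0.10).

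**Figure D3:**
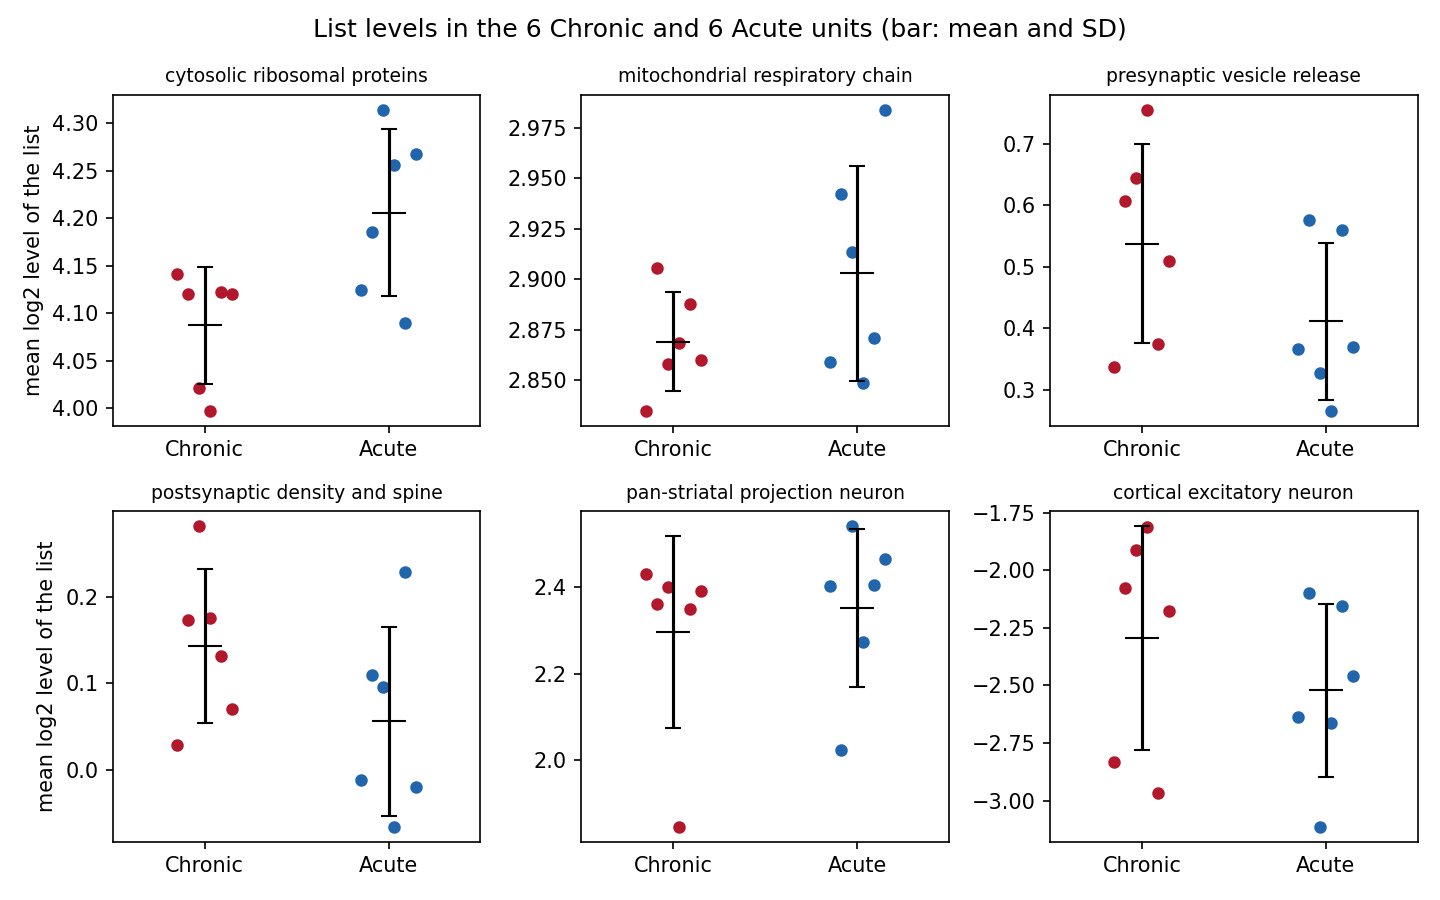
Mean log2 level of 6 gene lists in each of 6 Chronic units (left) and 6 Acute units (right), with mean and SD as bars. Ribosomal protein levels run from 4.00 to 4.14 in Chronic and from 4.09 to 4.31 in Acute units; 1 Chronic unit stands low in the pan-striatal list at 1.85.

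Histone genes, picked as a group after 3 of them were seen among the leading genes, were lower in 30 of 34, with a median of -0.14, and 7 of them were lower and none higher at an unadjusted p under 0.05, beside 0.86% and 1.62% of all genes. The 7 include the 3 that prompted the choice, Hist1h2bo, Hist1h2ac and H2ac4. Hist1h2ac lay at -0.04, 0.01 and 0.18 in Chronic units against 0.08, 0.31 and 0.38 in Acute units. H2ac4 lay at 0.40, 0.61 and 0.68 in Chronic units against 0.63, 0.81 and 1.07 in Acute units. The groups overlapped in both. Within slides 1, 2 and 3 the median was -0.11, -0.11 and -0.03. Histone genes are near-identical copies, so a probe may read several of them and the 34 values are not separate measurements. Enzymes that modify histones and DNA had 20 of 39 higher, with a median of 0.01. They included the demethylase Kdm1a at 0.19 (SE 0.08), and the acetyltransferases Kat2a at 0.23 (SE 0.12), Ep300 at -0.16 (SE 0.10) and Crebbp at -0.17 (SE 0.11), where other probes of the last pair gave 0.09 and 0.52.

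**Figure D4:**
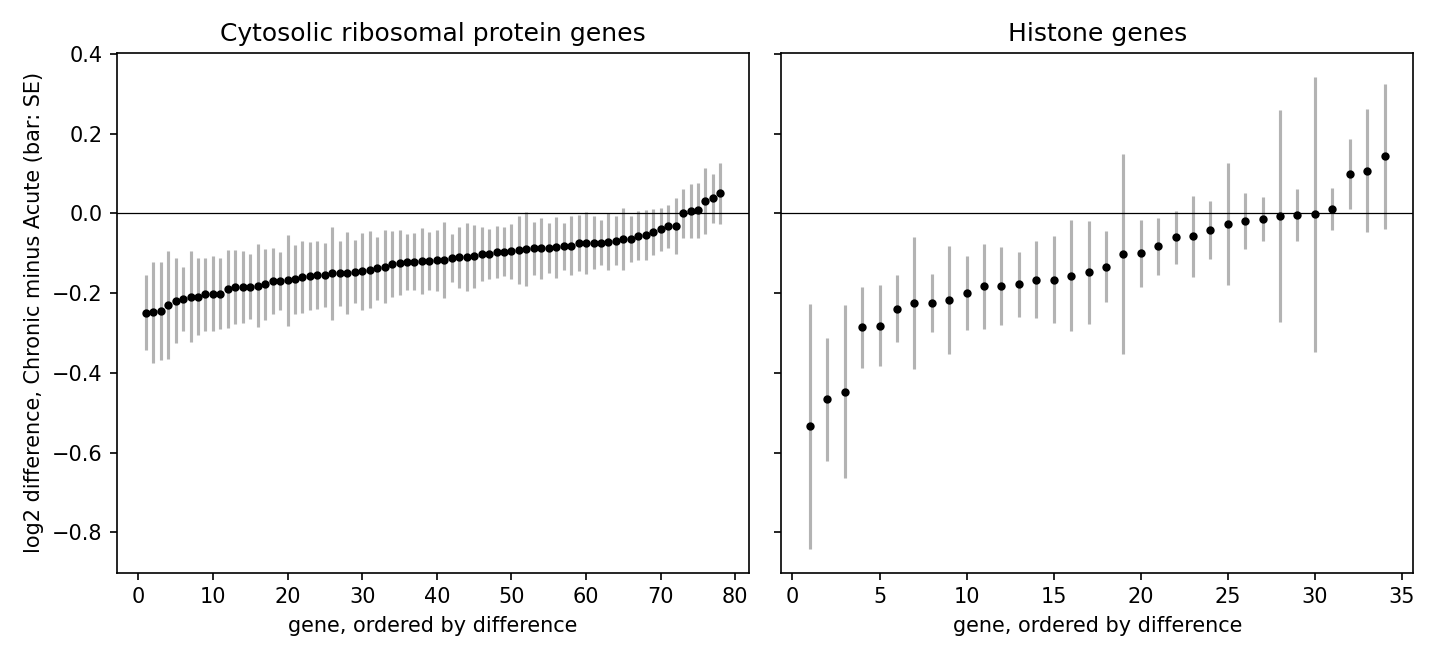
Log2 differences, Chronic minus Acute, with SE bars, of each of 78 ribosomal protein genes (left) and 34 histone genes (right), ordered by value. Below 0 lie 73 of the ribosomal protein genes and 30 of the histone genes.

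The stress, immune and monoamine genes named here are among those with the smallest p in their lists, and none passed the adjusted threshold. The glucocorticoid-induced factor Zbtb16 differed by 0.91 (SE 0.37), above background on 6 Chronic and 3 Acute arrays and so kept through the Chronic group, with slide values of 0.51, 2.63 and -0.16, while its list of 18 had a median of 0.04. Cdkn1a, a cell cycle inhibitor, differed by 0.29 (SE 0.16). Maoa, which breaks down monoamines, differed by 0.24 (SE 0.11). Of 28 interferon response and antigen presentation genes 21 were higher, beside 56.3% of all genes, with a median of 0.10. Oas1a was at 0.43 (SE 0.22) and at 0.47 on another probe, and Irf1 was at -0.21 (SE 0.12). Cytokine genes were split 10 and 10. The chemokine Cxcl10 was at -0.86 (SE 0.39), above background on 2 Chronic and 4 Acute arrays and so kept through the Acute group, and Icam1 and Nfkb2 were at 0.28 (SE 0.15) and 0.30 (SE 0.16). The clock gene Clock differed by 0.40 (SE 0.22).

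Markers of neighbouring tissue differed widely between units of the same group. Ttr, the defining transcript of the choroid plexus, ran from -5.62 through -4.60 to 4.96 in Chronic units and from -3.84 through 2.25 to 4.95 in Acute units, so each group held units with a high and a low level. Its difference of -3.87 (SE 2.13) was the largest of all genes in size, with slide values of -5.92, -2.51 and 1.56. Tmem212, an ependymal gene, differed by -1.59 (SE 0.99). The 12 measured choroid plexus and ependyma markers had a mean level of -5.15 to -2.53 in Chronic units and -4.19 to -2.69 in Acute units, and 6 were higher and 6 lower. Of all 20354 genes tested, whether tissue markers or not, 27 had a difference that passed 2-fold, and 25 of these were lower in Chronic units. Blood cell markers were higher in 8 of 10, with a median of 0.09. Astrocyte, microglia and oligodendrocyte markers had medians of -0.06, -0.03 and 0.06, with the astrocyte genes Ndrg2 at -0.23 (SE 0.12) and Gfap at 0.35 (SE 0.29; 0.09 on another probe). The endothelial transporter Slco1a4 differed by -0.26 (SE 0.12), while its other probes gave 0.05 and 0.19.

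**Figure D5:**
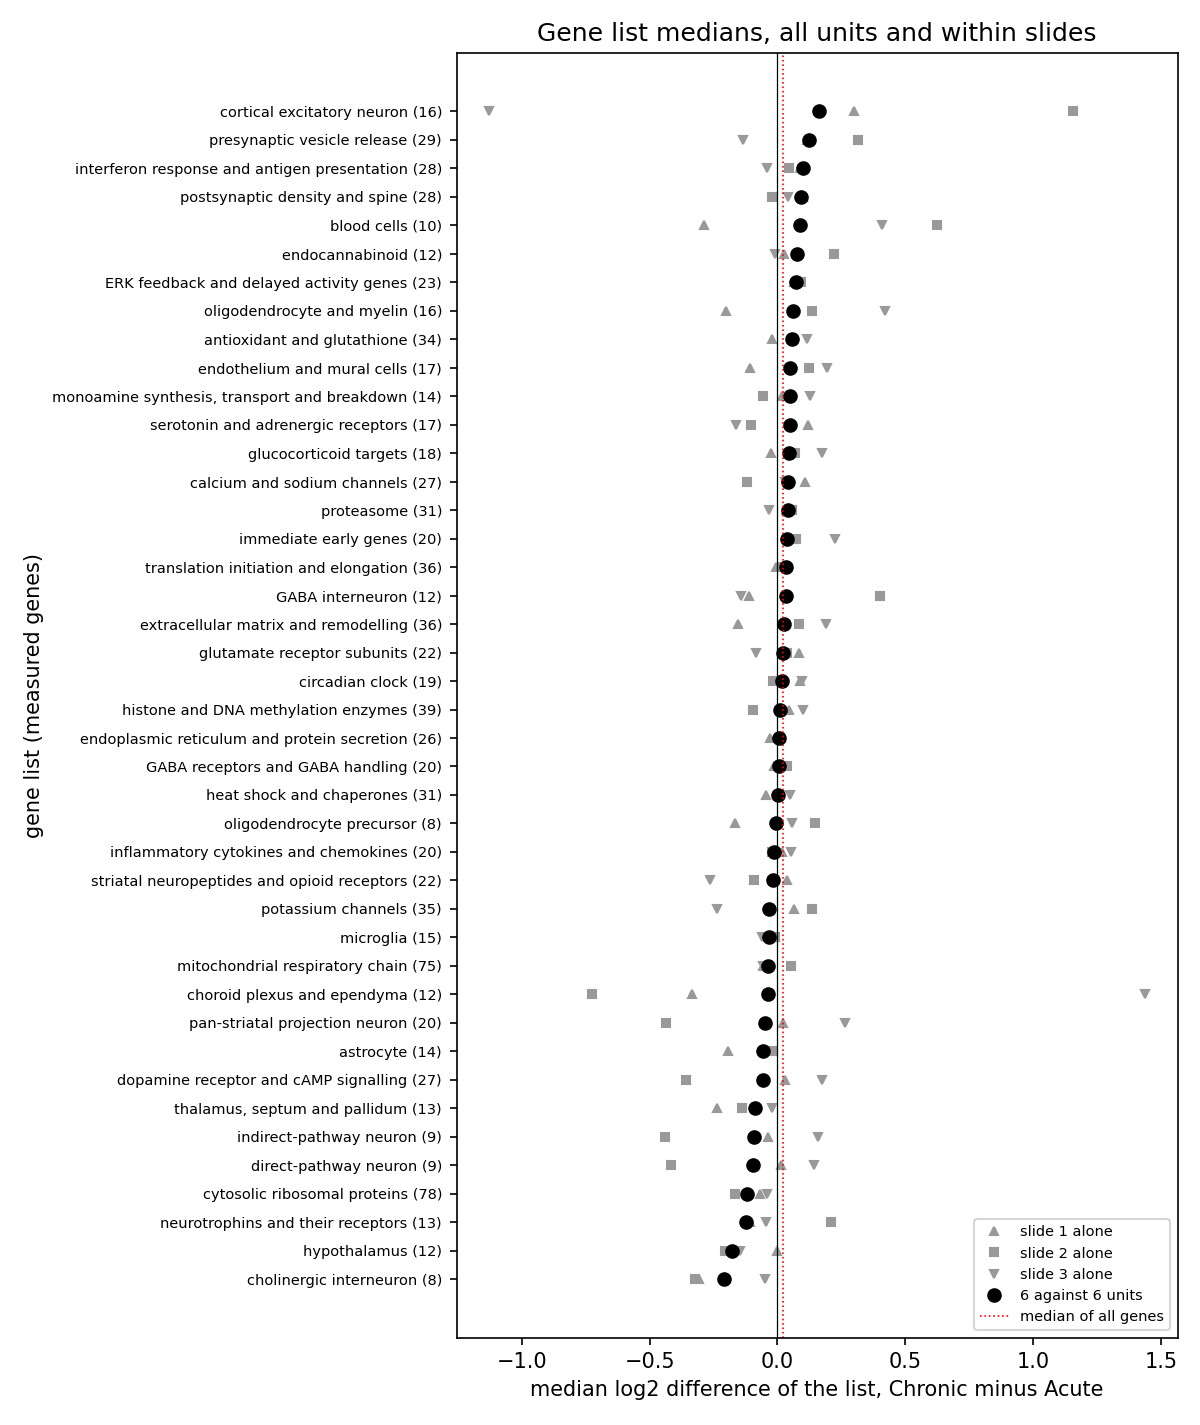
Median log2 difference, Chronic minus Acute, of each of 42 gene lists over 6 against 6 units (black) and within slides 1, 2 and 3 (grey symbols); the dotted line is the median of all genes, 0.02. Slides disagree most for cortical neuron and choroid plexus markers, and the ribosomal protein median is below 0 on each slide.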

How the data were processed

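Total RNA of left dorsal striatum was labelled with Cy3 and hybridised to 24 one-colour arrays. Per the submitters' processing notes, scans were read with Agilent Feature Extraction 10.7. Per the file headers, the authors' processed signal is an intensity with background subtracted and no normalization between arrays. Flags of 0 or 1 and mean and background intensities came from the same deposited files. The authors' deposited value table gives log2 numbers from 2.68 to 18.1 in the same rank order as each array's processed signals. Its columns have medians of 7.23 to 7.24, and its method and centring are not stated.

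Each log2 processed signal was scaled to its own array by subtracting the 75th percentile over non-control spots, with control and outlier spots left out. A probe was kept where, in some group, a share of 0.5 or more of the arrays flagged it above background (26259 of 45598), and the brightest probe stood for each gene, giving 20354 genes. Names came from RefSeq tables of build GRCr8, through accessions for 21109 probes and symbols for 7115, with 14779 probes unmatched. Arrays with a title letter in common were averaged, giving 18 units. On single arrays, limma's consensus correlation within a letter was -0.368. Arrays of a letter always lay on different slides and this fit had no slide term, so the value cannot tell how alike they are. The values do not show that arrays of a letter come from 1 rat. All 3 groups were fitted with limma 3.58.1 (lmFit, contrast, eBayes), with Benjamini-Hochberg adjustment at 0.05.

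The genes named are the 12 of smallest p on either side, a set list of 22, and up to 4 from each of 27 function and 15 marker lists, also by p. Exceptions, chosen after values were seen, were the histone genes. Some genes that the rule names are not reported here. The comparison and the gene lists were chosen with earlier results of these data known. Alternatives covered letters, slide, scaling, background, filters, probes, moderation, weights, covariates and each unit left out. The number of arrays limits the precision.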

Additional observations from a re-analysis of the deposited data

Results flagged for a closer look

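In the 6 units of a group, the highest or lowest unit stood far from the nearest other in 14 of 258 sets of values examined, and chance marks about 1 in 20. Chronic replicate 4 was the low unit in 5 of them. Its values were 2.21 for Drd1, against 2.84 in the nearest Chronic unit, 2.44 for Drd2 (nearest 3.14), 1.29 for the dopamine and cAMP list level (nearest 1.70), 1.85 for the pan-striatal list level (nearest 2.35) and -1.52 for the indirect-pathway list level (nearest -1.08). Acute replicate 3 stood low for Bdnf at -5.99 and for Ttr at -3.84, and high for the chemokine Cxcl10 at -5.79. Acute replicate 2 stood high for Clock at -5.82 and low for Ep300 at -0.74. Acute replicate 7 was low for Maoa at -4.21 and for the cytokine list level at -3.42. Chronic replicate 1 was high for Clock at -4.93, and the mean of Chronic replicates 6 and 8 was high for the chaperone list level at 0.46.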

How the results depend on the processing

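Under 37 alternative settings, 18 of them leaving out a unit, the count of genes past the threshold was 0 each time by limma. Without adjustment 505 genes had a p under 0.05. This number was 167 and 2228 with the array of digit 0 or digit 1 alone for each letter, 2072 with the letter as a random block, 811 with the drug groups alone, 298 with normexp and quantile normalization and 4159 with array weights. With a unit left out it lay between 297 (without Chronic replicate 3) and 1328 (without Chronic replicate 1). It was also 302 without Chronic replicate 4, 895 without Acute replicate 5 and 315 without Acute replicate 7. With Acute replicates 2 and 7 and Chronic replicate 5 left out, which had the fewest spots above background and were chosen after seeing the data, it was 504. The cause of these shifts was not tested.

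The ribosomal protein median lay between -0.15 and -0.09 with a unit left out, and between -0.20 and -0.04 under the 22 other settings, slides alone included, with 60 to 77 of 78 genes lower. The presynaptic median ran from -0.14 to 0.31, that of the dopamine list from -0.36 to 0.17, and the pan-striatal one from -0.43 to 0.27, the extremes on single slides.

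Of 87 genes named, 72 kept their direction under every one of the 37 settings in which they were measured (3192 values over the 87 genes). Some were not kept where a probe had to be above background on all 24 arrays. Certain settings cannot change a Chronic minus Acute difference, such as leaving out a Saline unit, fitting the drug groups alone or changing the moderation. With each probe tested alone, this count still read the brightest probe of a gene. N4bp1, Slc5a7 and Crebbp, lower in Chronic units, thus count as kept although their other probes gave 0.18, 0.33 and 0.52. Single slides were not among the 37, so Ttr, Bdnf and Zbtb16 count as kept although their slide values had both signs. Of the genes that changed direction, Ppp6c turned to -1.25 in the authors' value table and -1.33 with outlier spots kept. With only the digit 0 array of each letter, the differences were 0.011 for Egr1, -0.013 for Arc, 0.031 for Nr4a1, -0.082 for Ppp1r1b, -0.14 for Penk, -0.017 for Per2, -0.022 for Fkbp5, -0.096 for Th and -0.014 for Gria1, and with the digit 1 array 0.033 for Homer1. Fos was at -0.018 with the letter block, -0.0019 with the median of each array, -0.019 with quantile normalization, -0.052 in the authors' table and -0.026 with array weights. Nr4a1 was at 0.053 with 24 independent arrays and with the title series as a block, 0.098 with the letter block, 0.15 with slide as a block and 0.050 with array weights. Penk was at -0.016 with the median of each array and -0.036 with tissue covariates, Per2 at -0.018 with normexp and -0.016 with array weights, and Rpl10 at -0.0036 with the median of each array. Leaving out a unit gave -0.15 to 0.19 for Fos, -0.11 to 0.051 for Egr1, -0.15 to 0.24 for Arc, -0.17 to 0.11 for Nr4a1, -0.030 to 0.078 for Penk, -0.17 to 0.0032 for Tac1, -0.97 to 0.090 for Cartpt, -0.021 to 0.11 for Per2 and -0.10 to 0.011 for Homer1. No paired analysis was possible because the replicate numbers follow accession order and the titles share none across groups.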
